A study of Mus musculus with 8 samples.

Results

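The Hox genes were read in lymphatic and blood vascular endothelial cells of the normal mouse colon. Members were all probe sets whose annotation holds exactly 1 gene symbol made of Hox, a letter from a to d and a number, which gave 48 of the 45101 probe sets on the array and 33 of 18193 named genes. Lymphatic endothelial cells (LEC) form the vessels that return fluid and absorbed fat to the circulation, while blood vascular endothelial cells (BEC) form the inner wall of all blood vessels. Cells were isolated on a flow sorter after staining for CD31, CD45.2 and podoplanin, with sort gates unstated in the labels, from untreated C57BL/6J mice aged 8 weeks with no disease. Each of the 4 mice (3 female, 1 male) gave 1 LEC and 1 BEC sample, so there were 4 LEC and 4 BEC arrays. The replicate number is the mouse, and the pairs had been selected for good RNA and cDNA. Levels are log2 signals scaled to the same trimmed mean on every array.

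Hox genes encode transcription factors that bind DNA through a homeodomain, and they stand in 4 clusters (A, B, C and D) on different chromosomes. Their order in a cluster follows the order in which they are switched on along the head-to-tail axis of the embryo, with low paralogue numbers in front and high numbers at the tail, and many adult cells keep part of that code. Polycomb proteins keep unused Hox genes silent, Trithorax proteins keep used ones active, and Pbx and Meis proteins bind DNA together with Hox proteins. In cultured endothelium, Hox genes have been tied to sprouting and to the resting state of vessels.

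The arrays matched their labels. All 6 measured LEC markers, among them the podoplanin gene used in the sort, were called higher and all 7 BEC markers called lower in LEC by limma, and all 12 pan-endothelial markers lay above background on each of the 8 arrays. Background was set per array at the 95th percentile of 27 bacterial control probe sets, which ranged over the arrays between log2 signals of 3.43 and 4.88. Single BEC arrays had 1 to 6 of the 6 LEC markers above background, and single LEC arrays 1 to 4 of the 7 BEC markers. LEC replicate 1 was the array least like its group (median Spearman correlation across genes with the other LEC arrays, 0.603). Fibroblast markers stood higher on LEC replicates 2 and 4 than on the other arrays, and epithelial markers on LEC replicate 3 and BEC replicates 3 and 4, as given below. In sorted bulk samples, fewer cells of a type and less RNA per cell cannot be told apart.

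Some Hox genes were above background in both cell types. Those above it on all 4 arrays of a cell type were in clusters A, B and D, and 19 of 33 reached that mark in neither. By the probe set with the highest mean of each gene, 9 of 33 Hox genes lay above background on all 4 LEC arrays and 11 on all 4 BEC arrays, and 6 of these were shared (Hoxa3, Hoxa5, Hoxb3, Hoxb4, Hoxd8 and Hoxd9). Hoxb7, Hoxd10 and Hoxd12 were above background on all 4 LEC arrays but not on all 4 BEC arrays. Hoxa2, Hoxa9, Hoxa10, Hoxb5 and Hoxb6 were so on all 4 BEC arrays but not on all 4 LEC arrays. The background level itself differed, at 3.83 to 4.88 on LEC arrays and 3.43 to 4.52 on BEC arrays. A dim gene could therefore count in BEC and not in LEC at like signals. Hoxa2, for example, counted as below background at 3.91 on LEC replicate 2 and as above it at 3.57 on BEC replicate 4. None of the 7 Hoxc genes was so on all 4 arrays of either cell type, though Hoxc5 was above background on 3 LEC arrays. Single LEC arrays had 15 to 19 Hox genes above background and single BEC arrays 16 to 21. Of 13259 genes kept by a filter on dim probe sets, 9593 to 11347 were above it on LEC arrays and 10011 to 11701 on BEC arrays. The 33 Hox genes were not filtered, so the 2 sets of counts are not alike.

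**Figure D1:**
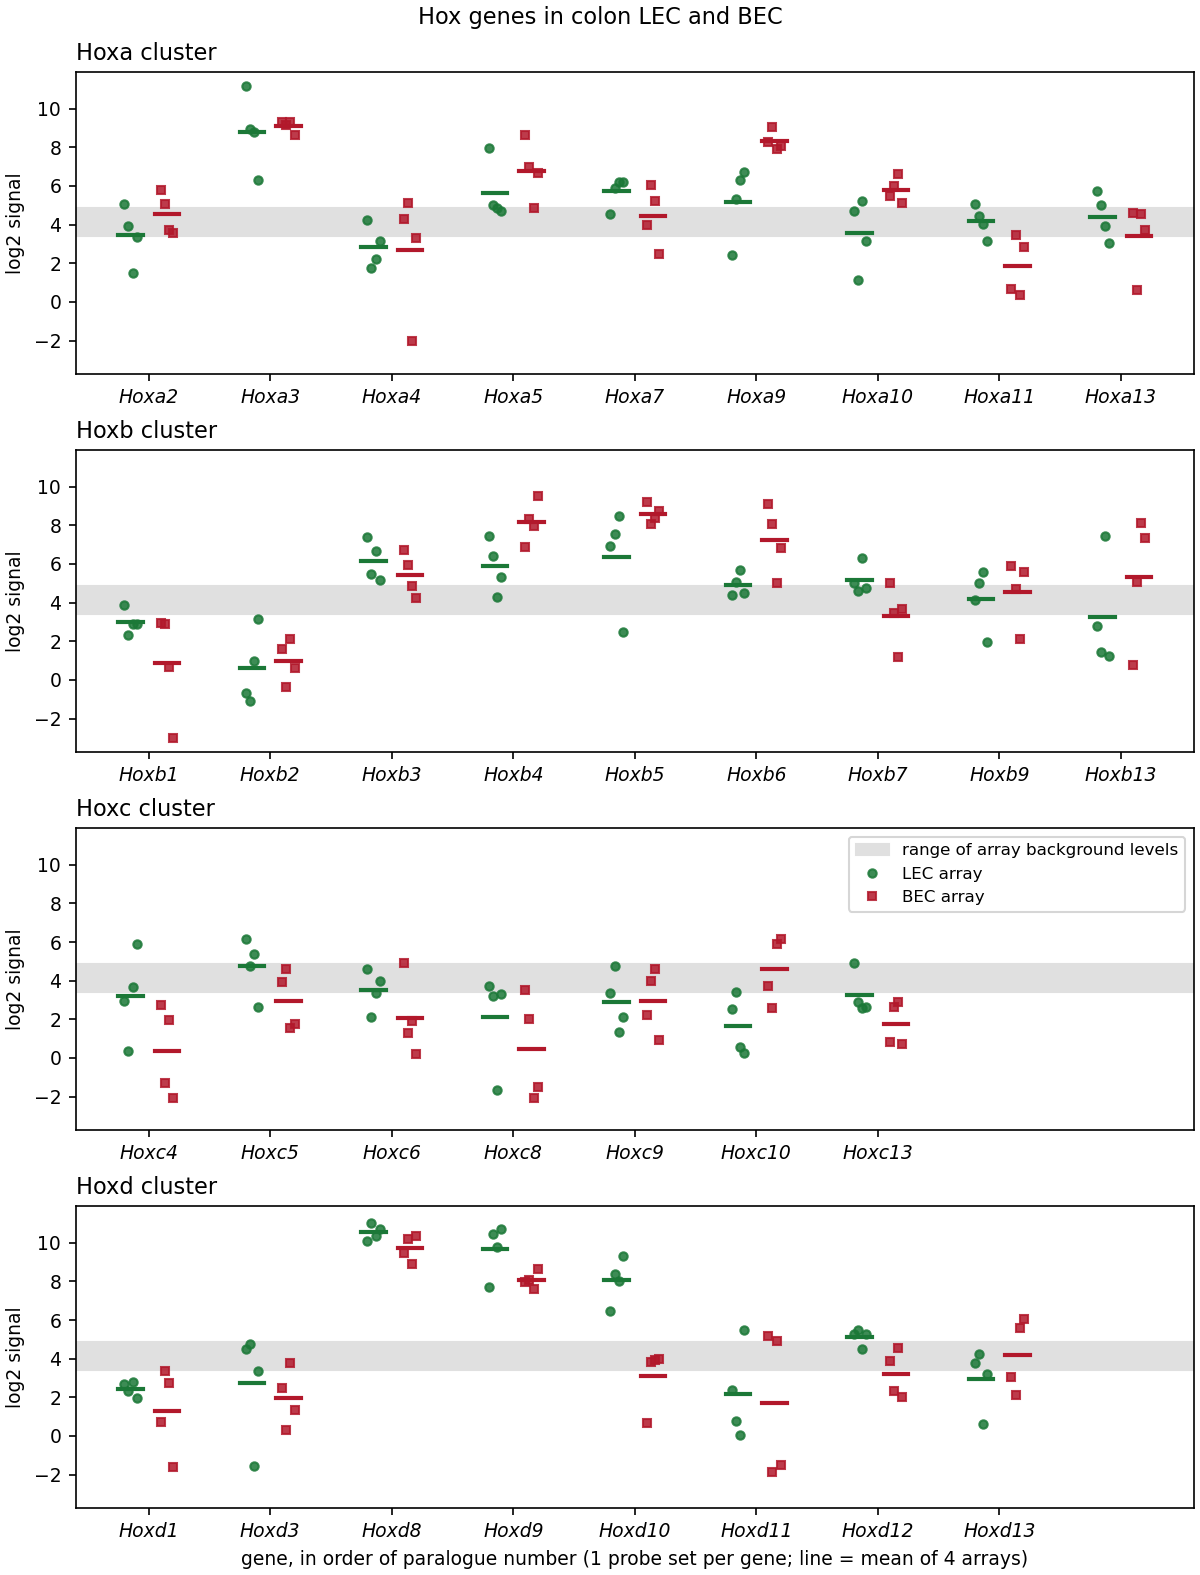
Log2 signal of each of the 33 Hox genes (y axis) in the 4 LEC (circles) and 4 BEC arrays (squares), by cluster and paralogue number (x axis), with lines at the means of 4 arrays and a grey band from 3.43 to 4.88, the range of array background levels. Hoxd10 is the gene whose LEC arrays (6.46 to 9.32) stand clear of the band while no BEC array exceeds 3.99. Heights compare arrays for a gene, not genes with each other.

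Of the 33 genes, 21 passed the filter on dim probe sets and were tested, and 1 was called, Hoxd10, higher in LEC (limma, adjusted p under 0.05 over 13259 genes). Over all genes tested 4.07% were called in either direction, 1.76% higher and 2.31% lower in LEC, so a call at 4.76% of the Hox genes was close to the background. At an unadjusted p under 0.05 there were 8 of 21 Hox genes, or 38.1%, beside 14.4% of all genes. The median difference, LEC minus BEC, was 0.18 over the tested Hox genes and 0.08 over all genes, both on the log2 scale. Ranges of LEC and BEC did not overlap at 2 Hox genes (9.52%), Hoxd10 and Hoxa9, beside 10.4% of all genes. By cluster, the fitted difference was above 0 at 5 of 5 tested Hoxd genes, at 3 of 8 Hoxa genes and at 2 of 7 Hoxb genes, beside 53.2% of all genes. These signs are a description of genes that share clusters and arrays. The split of all calls, 234 higher and 306 lower in LEC, was 162 and 336 with equal array medians and 123 and 280 with equal hybridisation controls.

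**Figure D2:**
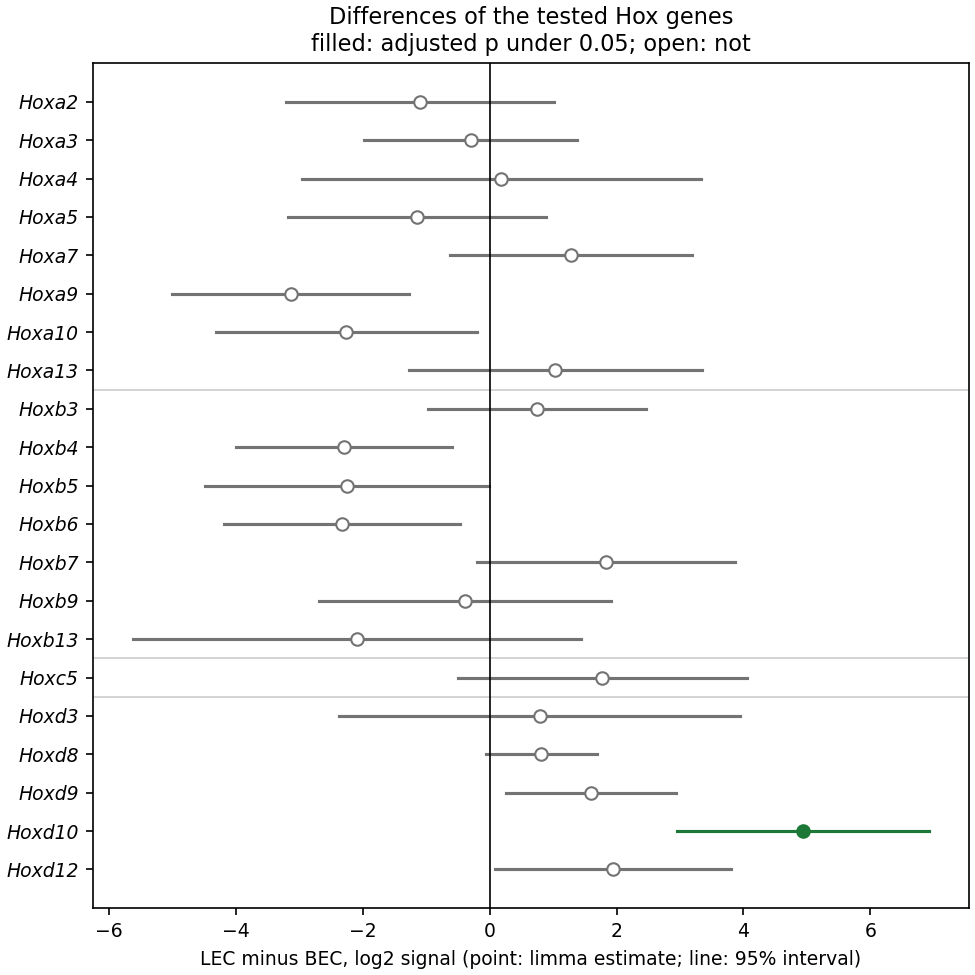
Difference LEC minus BEC in log2 signal (x axis; point, limma estimate; line, 95% interval) for the 21 tested Hox genes (y axis), in cluster order. Hoxd10, the filled point at 4.94, is the only one called. The 5 tested Hoxd genes lie right of 0, and Hoxa9, Hoxa10, Hoxb4, Hoxb5 and Hoxb6 lie left of it at -3.14 to -2.24.

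Within cluster D, Hoxd10 rose in LEC. Hoxd10 helps to set lumbar and limb identity in mice and has been linked to the resting state of human endothelial cells in culture. Its log2 signal was 6.46, 8.39, 8.04 and 9.32 in LEC replicates 1 to 4, against 0.68, 3.84, 3.94 and 3.99 in BEC replicates 1 to 4. The lowest LEC array stood above the highest BEC array, LEC was the higher in 4 of 4 mice, and BEC replicate 1 lay below its array's background. The means were 8.05 ± 1.19 in LEC and 3.11 ± 1.62 in BEC (SD, n = 4 each), a fitted difference of 4.94 ± 0.92 (moderated SE; limma, adjusted p = 0.00676). With BEC values raised to background the LEC mean was at least 15.8-fold higher, and this bound ran from 11.8-fold to 22.8-fold as each array was left out in turn. Fibroblast markers were also high on some LEC arrays, and their values are set beside those of Hoxd10 further on.

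The RefSeq sequence (GRCm38.p6) of the 250 bases before the annotated start is shown for Hoxd10, for its neighbour Hoxd9 and for Hoxa9, since the first and the last were the Hox genes whose LEC and BEC ranges did not overlap. Capitals mark CG dinucleotides, the feature of the CpG-rich promoters on which Polycomb and Trithorax proteins act.
Hoxd10, chr2:74691641-74691890, plus strand: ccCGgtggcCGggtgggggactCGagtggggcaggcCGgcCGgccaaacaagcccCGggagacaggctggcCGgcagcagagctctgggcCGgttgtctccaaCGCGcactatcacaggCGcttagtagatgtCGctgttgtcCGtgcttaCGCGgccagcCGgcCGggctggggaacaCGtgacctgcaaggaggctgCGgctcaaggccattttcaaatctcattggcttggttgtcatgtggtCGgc
Hoxd9, chr2:74697513-74697762, plus strand: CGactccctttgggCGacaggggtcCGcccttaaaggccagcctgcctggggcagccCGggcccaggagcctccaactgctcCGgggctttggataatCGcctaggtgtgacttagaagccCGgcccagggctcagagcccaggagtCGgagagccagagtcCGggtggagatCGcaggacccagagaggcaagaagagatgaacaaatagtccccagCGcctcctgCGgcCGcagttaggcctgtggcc
Hoxa9, chr6:52227371-52227620, minus strand: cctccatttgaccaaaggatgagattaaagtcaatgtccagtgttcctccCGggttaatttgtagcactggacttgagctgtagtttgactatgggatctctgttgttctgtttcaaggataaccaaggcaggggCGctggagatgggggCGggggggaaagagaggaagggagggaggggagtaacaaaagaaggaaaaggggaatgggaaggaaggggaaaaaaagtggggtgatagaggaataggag
These windows held 20 CG in Hoxd10, 13 in Hoxd9 and 3 in Hoxa9. The median was 6 over 32841 promoter windows of the same length and 13 over the 21 windows of Hox genes. Promoters were listed for 19 of the 33 Hox genes. On either strand, the retinoic acid receptor half-site AGGTCA was found in 5 of the 19 (Hoxb4, Hoxc4, Hoxd3, Hoxd8 and Hoxd10) and in 14.0% of all windows. The Pbx-Hox motif TGATNNAT was in 3 of the 19 (7.69% of all), the Meis motif TGACAG in 2 (15.9%) and the Cdx motif TTTATG in 3 (10.8%), and none of these 3 motifs was in the windows of Hoxd9, Hoxd10 or Hoxa9. A match of letters is not evidence of binding.

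Hoxd9, a trunk and hindlimb patterning gene, had signals of 7.70, 10.47, 9.80 and 10.69 in LEC replicates 1 to 4 and 7.95, 8.05, 7.63 and 8.64 in BEC. LEC replicates 2, 3 and 4 stood above every BEC array, while LEC replicate 1 lay within the BEC range. The difference was 1.60 ± 0.62 and was not called (limma, adjusted p = 0.232). Without LEC replicate 1 it was 2.25 and was called (limma, adjusted p = 0.0134). Hoxd8, which work in cultured endothelial cells has tied to the lymphatic regulator Prox1, had 10.08, 11.03, 10.34 and 10.74 in LEC and 9.47, 10.21, 8.92 and 10.34 in BEC. LEC was the higher in 4 of 4 mice but the ranges overlapped, and the difference of 0.81 ± 0.41 was not called (adjusted p = 0.397 by limma, 95% interval -0.07 to 1.69). Its other probe set gave 0.51 ± 0.54.

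Hoxd12, a digit and limb gene, read 5.26, 5.46, 4.52 and 5.27 in LEC and 3.88, 2.31, 4.56 and 2.00 in BEC. All LEC arrays were above background and 1 BEC array was, though the highest BEC value passed the lowest LEC value, and the difference of 1.94 ± 0.86 was not called (limma, adjusted p = 0.318). Hoxd3, an anterior member, was above background on 1 LEC and 1 BEC array and differed by 0.79 ± 1.47. Hoxd1, Hoxd11 and Hoxd13 were not tested, with signals from -1.85 to 6.06 over the 8 arrays. All 5 tested Hoxd genes kept a difference above 0 under every alternative in which they were tested, among them the scalings under which the median difference of all genes was -0.20 and -0.31, against 0.08 as deposited. These alternatives reuse the same 8 arrays.

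In cluster A the fitted difference furthest from 0 was that of Hoxa9. Hoxa9 is a central-to-posterior gene best known from blood stem cells, and in human endothelial cells it has been tied to Nos3, Kdr and Ephb4. It read 2.43, 5.30, 6.30 and 6.70 in LEC and 8.28, 9.04, 7.89 and 8.08 in BEC. No LEC array reached the lowest BEC array, and LEC replicate 1 was below background. The difference was -3.14 ± 0.87 and narrowly missed the threshold (limma, adjusted p = 0.0640). The adjusted p was 0.0269 with values raised to background and 0.0481 without LEC replicate 4. It ran up to 0.210 under the other alternatives. When every probe set was tested on its own, 3.7% of all probe sets and 1 of 27 Hox probe sets, that of Hoxd10, were called by limma. The other probe set of Hoxa9 gave -0.49 ± 0.86, with means of 4.56 in LEC and 5.05 in BEC, so the size rests on 1 of 2 probe sets.

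Hoxa10, a posterior gene with a role in the uterus, read 4.69, 1.12, 5.21 and 3.14 in LEC and 5.47, 5.97, 6.64 and 5.12 in BEC. All 4 BEC arrays and 1 LEC array were above background, and the difference of -2.26 ± 0.96 was not called (limma, adjusted p = 0.287). Without LEC replicate 2 it was -1.45. Hoxa3, a gene of pharyngeal development, read 11.18, 8.94, 8.80 and 6.31 in LEC and 9.32, 9.16, 9.31 and 8.65 in BEC. LEC arrays spread on both sides of the BEC arrays, and the difference was -0.30 ± 0.78 (95% interval -1.98 to 1.38). Hoxa5, which shapes lung and airway, read 7.98, 5.03, 4.85 and 4.73 in LEC and 8.65, 6.98, 4.84 and 6.69 in BEC, with a difference of -1.14 ± 0.94. Within both cell types its highest value was in mouse 1. The other probe set of Hoxa5 gave -0.08 ± 1.22, with LEC the higher in 3 of 4 mice.

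Hoxa2, a hindbrain patterning gene, read 5.05, 3.91, 1.47 and 3.34 in LEC and 5.81, 5.04, 3.73 and 3.57 in BEC. BEC was the higher in each of 4 mice and the ranges overlapped (-1.10 ± 0.98). Hoxa4, Hoxa7 and Hoxa13 differed by 0.18 ± 1.46, 1.28 ± 0.89 and 1.03 ± 1.07 and were not called. Hoxa11 was not tested, and its signals lay between 0.37 and 5.08.

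In cluster B the neighbours Hoxb4, Hoxb5 and Hoxb6 all had fitted differences between -2.33 and -2.24, none of which was called. Hoxb4, a gene that promotes renewal of blood stem cells, read 7.44, 6.42, 4.28 and 5.34 in LEC and 6.88, 8.33, 7.95 and 9.51 in BEC. LEC replicate 1 was above BEC replicate 1, and in the other 3 mice BEC was the higher (-2.30 ± 0.79, limma, adjusted p = 0.158). Its second probe set differed by -0.22 ± 1.01. Hoxb5, which also acts in enteric neurons, read 6.92, 7.58, 8.46 and 2.47 in LEC and 9.21, 8.08, 8.39 and 8.72 in BEC. The low LEC value was that of replicate 4 (-2.24 ± 1.04, limma, adjusted p = 0.344), and without that array the difference was -0.95. Hoxb6, a trunk patterning gene, read 4.39, 5.08, 5.71 and 4.50 in LEC and 9.10, 8.06, 5.00 and 6.82 in BEC. BEC replicate 3 lay within the LEC range (-2.33 ± 0.86, limma, adjusted p = 0.202).

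For Hoxb7 the fitted difference lay above 0, without a call. Hoxb7 has been tied to vessel growth in tumours, and it read 5.02, 4.58, 6.31 and 4.75 in LEC and 5.02, 3.46, 1.19 and 3.65 in BEC (1.83 ± 0.94, limma, adjusted p = 0.416). Hoxb3, linked to capillary growth, read 7.39, 5.50, 6.68 and 5.15 in LEC and 6.70, 5.96, 4.88 and 4.22 in BEC. Its ranges overlapped, and its probe sets differed in sign, at 0.74 ± 0.81 and -1.38 ± 0.68 when each was tested on its own. The second read 5.15, 3.98, 5.32 and 5.06 in LEC and 5.92, 6.18, 6.47 and 6.44 in BEC, with no overlap and no call (limma, adjusted p = 0.407). Without LEC replicate 1 the second had the higher mean and stood for the gene, at -1.47. Hoxb9 differed by -0.39 ± 1.07. Hoxb1 and Hoxb2 were not tested, and neither was above background on any array. Of the 6 Hox genes with several tested probe sets, 4 had the same sign in all of them, and Hoxa3 and Hoxb3 did not. Sizes differed even where signs matched: the second probe sets of Hoxa5, Hoxa9 and Hoxb4 gave only -0.08, -0.49 and -0.22.

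**Figure D3:**
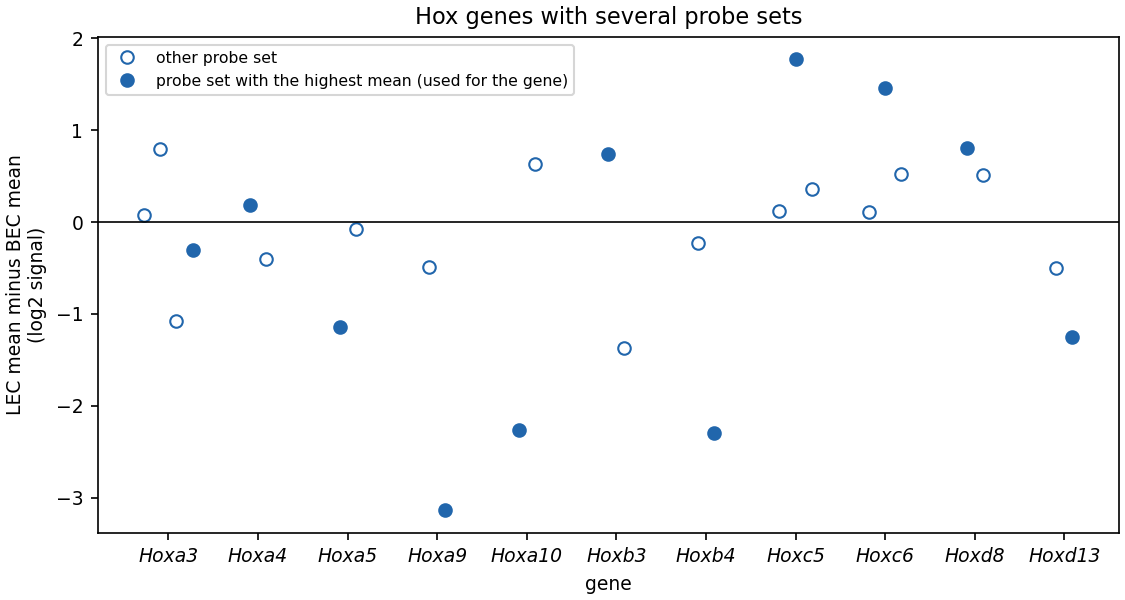
Difference of the LEC mean from the BEC mean in log2 signal (y axis) for each probe set of the 11 Hox genes that have several (x axis), with the probe set of the highest mean filled. The filled points of Hoxa9 (-3.14) and Hoxb4 (-2.30) lie far below their open points (-0.49 and -0.22), and Hoxb3 has a point on each side of 0. Hoxd10 has a single probe set and is not drawn.

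In cluster C, Hoxc5 was the only one of 7 members tested. It was above background on 3 LEC arrays and 1 BEC array, with 6.15, 4.76, 5.37 and 2.66 in LEC and 3.93, 4.61, 1.57 and 1.74 in BEC. It was the higher in LEC in each of 4 mice, with overlapping ranges (1.77 ± 1.06, limma, adjusted p = 0.497). Hoxc4, Hoxc6, Hoxc8, Hoxc9, Hoxc10 and Hoxc13 read between -2.07 and 6.17. Over all clusters, 4 of the 12 untested Hox genes were above background on no array (Hoxb1, Hoxb2, Hoxc8 and Hoxd1).

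Hoxb13 was above background on 1 LEC array and 3 BEC arrays. Hoxb13 is the tail-most B gene, known from prostate and distal gut epithelium, and it read 2.78, 1.46, 7.45 and 1.25 in LEC and 0.80, 5.05, 8.12 and 7.34 in BEC. It was highest on LEC replicate 3 and BEC replicates 3 and 4 (LEC minus BEC -2.09 ± 1.64, limma, adjusted p = 0.642). The mean log2 signal of 14 epithelial markers was 4.50, 4.48, 8.19 and 4.72 in LEC and 4.95, 4.76, 9.01 and 7.10 in BEC, highest on those same 3 arrays. Hoxb13 was also above background on BEC replicate 2 (5.05), where the epithelial mean was 4.76 and the background 3.43. Of the 14 epithelial markers, 6, 7, 12 and 8 were above background on LEC replicates 1 to 4. On BEC replicates 1 to 4 it was 10, 11, 13 and 13. The summed linear signal of these markers ran from 406 to 10612 in LEC and from 678 to 21821 in BEC, and Lgals2 was below background on all 8 arrays. Of 13 tested epithelial markers, 0 were called by limma, and 0 passed an unadjusted p under 0.05. Hoxc10 and Hoxd13, posterior genes that were not tested, were high on BEC replicates 3 and 4 (5.89 and 6.17 for Hoxc10, 5.59 and 6.06 for Hoxd13) but not on LEC replicate 3 (0.55 and 0.62). The part of epithelial RNA in these levels was not tested.

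Fibroblast markers differed between the LEC arrays. Their mean log2 signal over 12 genes was 4.47, 8.82, 5.44 and 7.91 in LEC and 3.84, 3.49, 4.01 and 4.24 in BEC. Their summed linear signal ran from 877 to 11483 in LEC and from 433 to 987 in BEC, with 4 to 12 of the 12 genes above background in LEC and 6 to 8 in BEC. Of 11 tested, 1 was called higher in LEC by limma (Fbln1, an extracellular matrix protein) and 6 had an unadjusted p under 0.05. Col1a2 was above background on all 4 LEC and all 4 BEC arrays, and Col3a1 on 4 LEC and 3 BEC arrays. Lum, a matrix proteoglycan, was so on 1 LEC array and no BEC array, and Pdgfra on 2 LEC and 4 BEC arrays. The fitted difference was above 0 at 10 of the 11 and below 0 at 1, Pdgfra (-0.06 ± 1.11), and was 0.01 ± 0.62 for Fn1. LEC replicate 1 had the least fibroblast signal among LEC arrays, with a sum within the BEC range and a mean log2 signal above it. That mean (4.47) was nonetheless below the array's own background of 4.88, the highest of all arrays. On it 4 of the 12 genes were above background, fewer than on any BEC array. Hoxd10 (6.46) and Hoxd9 (7.70) both had their lowest LEC values on that array, the first above the BEC maximum of 3.99 and the second within the BEC range. Hoxd10 was called when any single array was left out (limma, adjusted p 0.00138 to 0.0452 over all alternatives), but no fit left out LEC replicates 2 and 4 together. The part of fibroblast RNA in the Hoxd10 and Hoxd9 levels was not tested.

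Markers of other cell types were read too. Summed signals of 12 smooth muscle and pericyte markers ran from 784 to 1474 in LEC and from 1108 to 1803 in BEC, with 1 of 8 tested called lower in LEC (Rgs5, a pericyte regulator). The fitted difference was above 0 at 4 of the 8 and below 0 at 4. Among those above were Pdgfrb (1.81 ± 0.87) and Kcnj8 (1.74 ± 0.80), neither of them called. Those below were Rgs5 and, without a call, Acta2 (-2.15 ± 0.74), Tagln (-2.29 ± 1.37) and Myh11 (-1.10 ± 0.73). Summed signals of 8 neural and glial markers ran from 122 to 316 in LEC and from 116 to 255 in BEC. Those of 11 leukocyte markers ran from 190 to 535 in LEC and from 93.1 to 289 in BEC, and limma called none of either list (1 of 4 tested neural and 2 of 8 tested leukocyte markers had an unadjusted p under 0.05). Of 12 pan-endothelial markers, 2 were called lower in LEC (Esam and Cdh5, both of cell junctions), and the sums were 14411 to 22108 in LEC and 27274 to 39201 in BEC. The fitted difference was below 0 at 11 of the 12 and above 0 at 1, and 8 had an unadjusted p under 0.05 (limma). Ranges of LEC and BEC did not overlap at 7 of them (58.3%), beside 10.4% of all genes.

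**Figure D4:**
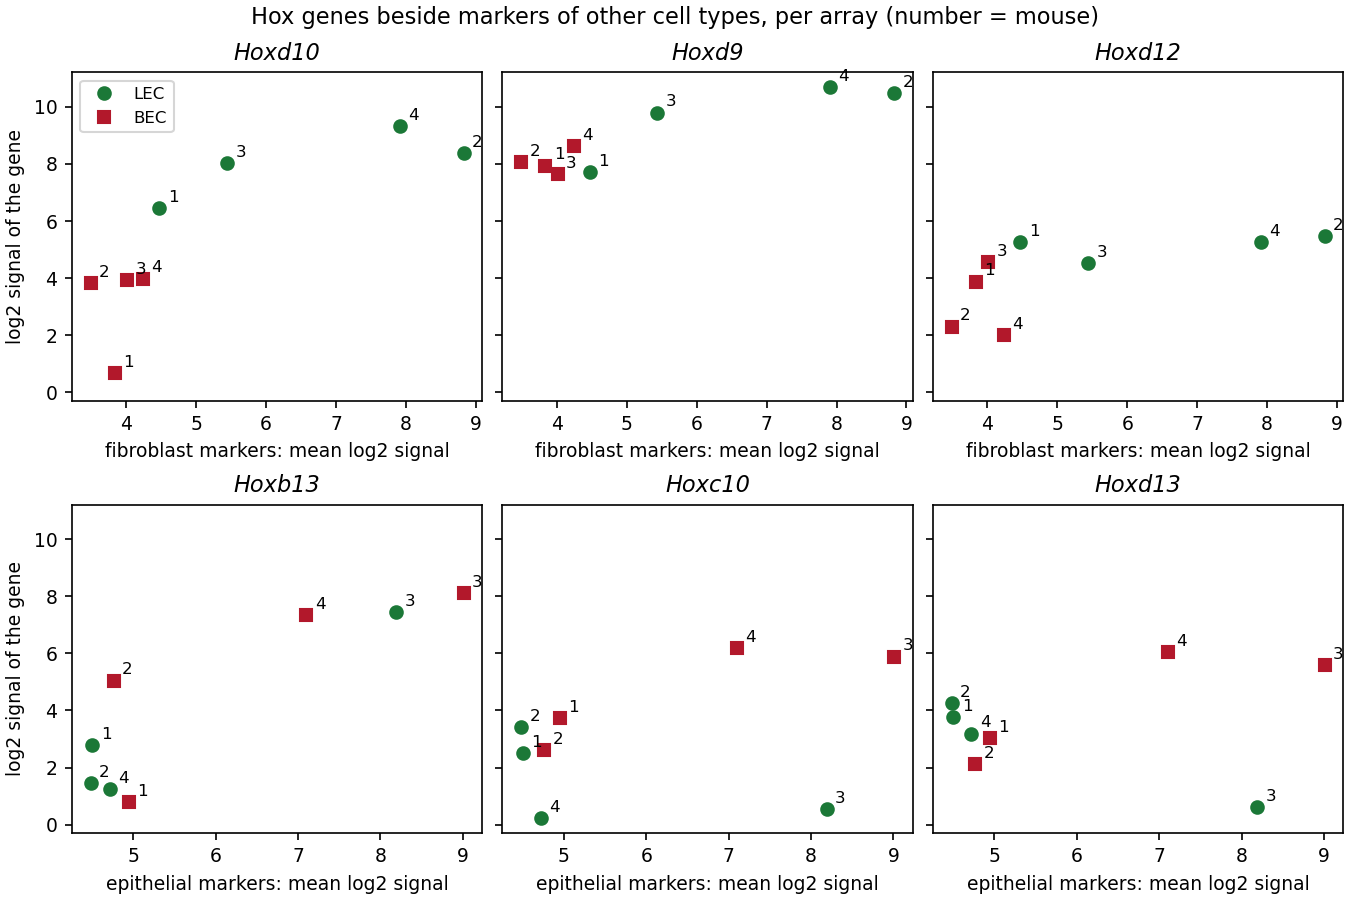
Log2 signal of 6 posterior Hox genes (y axis) against the mean log2 signal of fibroblast markers (upper row) or epithelial markers (lower row) on each array (x axis), LEC as circles and BEC as squares, numbered by mouse. Hoxd10 on LEC replicate 1 (6.46) is above all BEC arrays at a fibroblast level of 4.47, against 3.49 to 4.24 in BEC. The level of 4.47 is below that array's background of 4.88. Hoxd9 on the same array lies within the BEC range. Hoxb13 is highest on LEC replicate 3 and BEC replicates 3 and 4, where epithelial markers are highest. It also reads 5.05 on BEC replicate 2, at an epithelial level of 4.76 with 11 of the 14 epithelial markers above background.

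Partners, regulators and reported targets of Hox genes, with other homeobox genes, were read from 6 lists. Of their 74 tested genes, 2 were called, 1 higher and 1 lower in LEC (2.70%, against 4.07% of all genes). Among the TALE cofactors, which bind DNA beside Hox proteins, limma called 0 of 6 and 2 had an unadjusted p under 0.05. Pbx2 read 5.69, 8.24, 5.50 and 7.25 in LEC and 7.81, 8.94, 8.76 and 9.12 in BEC, lower in LEC in 4 of 4 mice but not called (-1.99 ± 0.68, limma, adjusted p = 0.158). Pknox1, another cofactor, differed by -1.89 ± 0.71. Meis1 differed by 0.25 ± 0.85.

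Retinoic acid switches on Hox genes in the embryo, and Cdx factors do so in the hindgut. Of 10 tested genes of that list, 1 was called. Cyp26b1, an enzyme that breaks down retinoic acid, read 6.88, 2.02, 2.81 and 3.74 in LEC and 10.39, 8.86, 9.48 and 8.88 in BEC. All LEC arrays were below all BEC arrays, and the LEC mean was at least 24.9-fold lower (fitted difference -5.54 ± 0.94, limma, adjusted p = 0.00335). This bound ran from 19.9-fold to 40.7-fold as each array was left out in turn, and was highest without LEC replicate 1. The receptor gene Rara and the retinol enzyme gene Dhrs3 differed by 0.02 ± 0.67 and 0.59 ± 0.57.

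Polycomb genes encode silencers of the Hox clusters and Trithorax genes their counterparts. By limma, 0 of 21 Polycomb genes and 0 of 13 Trithorax genes were called, with 1 and 0 at an unadjusted p under 0.05. The histone-binding genes Rbbp4 and Rbbp7 differed by 0.03 ± 0.34 and 0.59 ± 0.49, and the methyltransferase genes Kmt2c and Kmt2d by -0.10 ± 0.43 and -0.39 ± 0.46. Of 14 other homeobox genes, 0 were called and 3 had an unadjusted p under 0.05. Zeb1, a repressor of epithelial genes, differed by 1.05 ± 0.48 and Meox1, a homeobox gene of mesoderm, by 0.19 ± 0.61.

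Genes that Hox factors regulate in cultured, mostly human, endothelial cells gave 1 call in 10. Mmp14, a membrane-bound matrix protease, read 8.27, 8.47, 8.32 and 9.77 in LEC and 3.93, 5.21, 5.71 and 4.74 in BEC. Every LEC array was above every BEC array, at least 12.7-fold in the mean (fitted difference 3.81 ± 0.65, limma, adjusted p = 0.00344). The receptor genes Kdr and Ephb4 differed by -1.15 ± 0.33 (limma, adjusted p = 0.0735) and 0.06 ± 0.38. Kdr was called without BEC replicate 4 (limma, adjusted p = 0.0445).

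**Figure D5:**
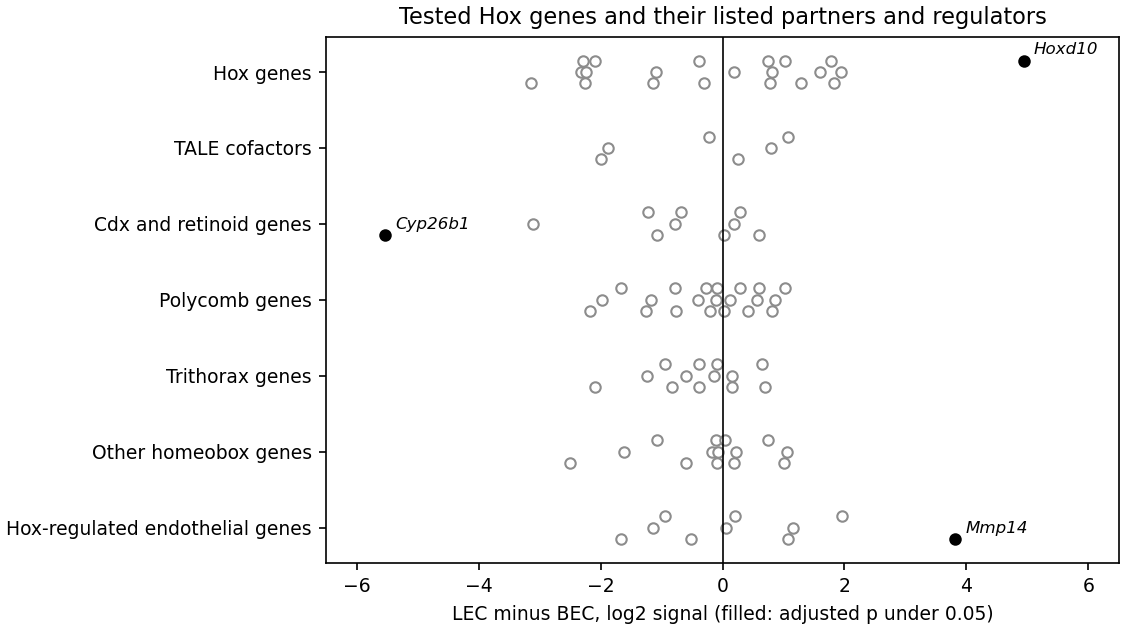
Difference LEC minus BEC in log2 signal (x axis) for the 21 tested Hox genes and the tested genes of 6 lists (y axis). Each point is a gene, filled where the adjusted p was under 0.05. The lists hold partners, regulators and reported targets of Hox genes, and other homeobox genes. Filled points are Hoxd10 (4.94), Cyp26b1 (-5.54) and Mmp14 (3.81).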

How the data were processed

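RNA of sorted LEC and BEC from 4 mice was measured on 8 single-colour arrays. Per the labels, RNA was amplified linearly, with primers at the poly(A) sequence and along transcripts. The authors deposited log2 signals, and MAS5 is named in the submitters' processing notes (version not given in the sources used here). From the values, the 2% trimmed mean of linear signal was 100.04 on every array, which presumes equal total signal in both cell types. The arrays' precision is limited by their number.

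Probe sets were named from platform annotation of 2016, updated through gene numbers to RefSeq symbols: 34945 had 1 gene, 932 had several and 9160 had none. A gene was represented by its probe set of highest mean signal, and 13259 genes passed the filter (above the 40th percentile of the array on 4 or more arrays). The model was limma's linear fit, version 3.58.1 under R 4.3.3 (intensity trend, cell type as the only term), two-sided, with Benjamini-Hochberg adjustment over all of them. Differences are LEC minus BEC with moderated standard errors. The fit was tested on simulated data. The named genes are every Hox gene, with values per array where called or above background on all 4 arrays of a cell type. Hoxc5, Hoxb13 and single arrays of Hoxc10 and Hoxd13 were added after their values were seen. In each list of partners and regulators, the named genes are the called members and the 2 of highest mean signal, with Meis1 added. Some genes of the marker lists were named after their values were seen. "At least" folds raise the dimmer group to background. Alternatives were other filters, scalings and probe set rules, values raised to background, no trend, the mouse as a block and each array left out. Mouse pairs come from the series' design; same-mouse deviations correlated at 0.142, 0.0776, 0.181 and 0.0510. P-values measure the spread between animals together with amplification and array. Members and lists were chosen with earlier results of these data known.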

Additional observations from a re-analysis of the deposited data

Results flagged for a closer look

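Of 42 sets of 4 arrays (21 tested Hox genes in LEC and in BEC), 2 held an array far from its group, and chance alone gives about 1 such set in 20 (the test used Dixon's gap against the range). For Hoxa5 in LEC, replicate 1 had a log2 signal of 7.98, against 4.73 to 5.03 on the other LEC arrays. For Hoxd10 in BEC, replicate 1 had 0.68, below background, against 3.84 to 3.99 on the other BEC arrays. Without that array Hoxd10 was still called, and its bound was 17.5-fold.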

How the results depend on the processing

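Hoxd10 kept its direction and its call under all 18 alternatives (difference 3.98 to 5.47). The number of Hox genes called was 1, and became 2 with values raised to background (Hoxa9 joined). As each array was left out in turn it ran from 1 to 2, with Hoxd9 joining without LEC replicate 1 and Hoxa9 without LEC replicate 4. No result changed sign past its threshold. Over all genes, 540 were called, 888 when every probe set was tested on its own, and 332 to 512 with an array left out (332 without BEC replicate 2). Of the calls, 32.5% were higher in LEC when array medians were made equal and 30.5% when hybridisation controls were, beside 43.3% as deposited. With 1 LEC array left out the share was 33.3% to 37.9%, and with 1 BEC array left out 50.3% to 51.7%. For the genes of the partner, regulator, target and other homeobox lists the count was 2. It was 2 to 3 with an array left out, always with Cyp26b1 and Mmp14. With the mouse as a replicate block, 534 genes, 1 Hox gene and 3 genes of these lists were called, and no Hox call changed. With the highest bacterial control as background, chosen after seeing the data, 7 Hox genes were above it on all LEC arrays and 10 on all BEC arrays. Low signals limit 19 of 33 Hox genes, which were above background on all 4 arrays of neither cell type.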

Other observations

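Probe sets at the Hox clusters that name no single Hox gene were read as well, and were chosen after their values were seen. Hoxd3os1, a transcript annotated opposite Hoxd3, had 2 probe sets. One read 6.51, 7.73, 7.44 and 9.31 in LEC and 2.79, 6.72, 0.09 and 4.13 in BEC, the higher in LEC in 4 of 4 mice (difference 4.32, not called by limma among all probe sets, adjusted p = 0.0660). The other read 10.76, 8.85, 7.46 and 8.46 in LEC and 8.24, 9.21, 6.36 and 7.57 in BEC (1.04 ± 0.75 in the fit over genes, limma, adjusted p = 0.604), so the probe sets differ in size. Hoxb5os, opposite Hoxb5, spread from -0.79 to 7.26 in LEC and from 2.33 to 5.18 in BEC. The highest signal of either Hoxa11os probe set was 4.82. A probe set shared by Hoxb7 and Hoxb8 read 3.76 to 6.96 in LEC and 3.34 to 6.26 in BEC, and one of those shared by Hoxd3 and Hoxd4 read 3.97 to 6.11 in LEC and 1.93 to 7.27 in BEC.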
